A study of Homo sapiens with 6 samples.

Results

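RNA for the enzymes and factors that license replication origins and copy DNA was followed in 6 RNA-seq libraries labelled HCT116, an established human colorectal cancer line. The 52 genes were chosen by name from 30676 genes in the deposited table, by a rule that used no measured value, though earlier results of these data were known. All 52 passed the filter on low values (a mean of at least 0.5 FPKM, a level in fragments scaled by gene length and library size), as did 13721 genes in all. Both groups carry the WT genotype and were kept at 1% oxygen for 24 hours, per the labels. The 3 GIA libraries come from cells given GIA, called a genistein isoflavonoid alkaloid in the study's title, at 10 µM, and the 3 DMSO libraries from cells given DMSO, the solvent, at 0.1%. No library from cells in normal oxygen was analysed here, so the comparison is of GIA with solvent within low oxygen. Whether the libraries of 1 group were grown as separate cultures is not stated, so the p-values reflect only how these samples spread, and that spread may be technical.

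A cell copies its genome once in each division cycle. In G1 phase the origin recognition complex (ORC1 to ORC6) sits on origins and, with CDC6 and CDT1, loads the ring-shaped MCM2 to MCM7 helicase, which is called licensing. Geminin (GMNN) later binds CDT1 and prevents a second loading. In S phase CDC45 and the GINS complex join the MCM ring to form the active CMG helicase, polymerase alpha with primase starts each strand, and polymerases epsilon and delta extend them while held by the ring-shaped clamp PCNA. Many of these genes are known targets of E2F transcription factors, which act at entry into S phase. In bulk RNA, fewer cells of a kind and less RNA in each cell cannot be told apart, and here a level is the average over all cells of a culture, in whatever phase of the cycle they were.

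The libraries held 55725249 to 67835059 estimated counts, and each member had between 1499 counts (RPA3, in its lowest library) and 104152 (RRM1, in its highest). GIA library 2 stood apart from the rest: its counts gave a chi-square per degree of freedom of 5.59 to 8.96 against each other library, and the other libraries among themselves gave 2.67 to 4.06. The colon line's label was checked against marker genes. EPCAM (0.119 to 0.335 FPKM) and CDH1 (0.0165 to 0.0490), which define epithelial cells, were near 0 in all 6 libraries, while the epithelial keratins KRT8 (134 to 151), KRT18 (219 to 274) and KRT19 (26.2 to 29.9) were high. Of the fibroblast markers, LUM was at 157 to 197 FPKM, DCN at 11.2 to 16.0, COL1A1 at 2.23 to 3.17 and COL3A1 at 0 to 0.00766. Leukocyte and endothelial markers were near 0, with PTPRC at 0 to 0.0162 FPKM, CD14 at 0.0520 to 0.174, PECAM1 at 0.0550 to 0.123, VWF at 0 to 0.0110 and CDH5 at 0 to 0.0268. The markers COL1A2, CD3E and KDR were not analysed here. Of markers looked at after the values were seen, VIM was at 147 to 160 FPKM, the epithelial gene CLDN7 at 10.2 to 14.9, and VIL1, KRT20, LGR5 and AXIN2 were each at most 0.0787. EPCAM and CDH1 thus go against the label, as do the fibroblast markers LUM and DCN, which were expressed. The keratins and the near absence of COL3A1 do not. Of the genes looked at later, CLDN7 and VIM were expressed and VIL1, KRT20, LGR5 and AXIN2 were near 0. They were not counted for or against the label. What the cells were was not tested, and the samples are called the libraries labelled HCT116.

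Many of the members hold a sequence feature that the rule for choosing them did not use. Many are also known E2F targets, as said above, so a choice by name is not independent of that feature. Promoter windows from RefSeq (GRCh38.p14, 250 bases before to 50 after a transcript start) were found for 46 of the 52 genes. An E2F-type motif was searched as TTTCCCGC, TTTGGCGC, TTTCGCGC, TTTGGCGG or TTTCCCGG on either strand. It was present in 28 of the 46 (60.9%), against 5.76% of all 27305 genes with a RefSeq window and 10.3% of the 9448 tested genes with one. The stretches below show the motif in its setting for the most abundant member of a role whose stretch lies outside the exons of protein-coding genes, read 5′ to 3′ along the gene's strand, with the motif in capitals. In MCM6 a pair of motifs share 4 bases, and both are in the capitals.
GMNN: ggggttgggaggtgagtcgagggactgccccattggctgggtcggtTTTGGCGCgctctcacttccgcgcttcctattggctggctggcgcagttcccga
MCM6: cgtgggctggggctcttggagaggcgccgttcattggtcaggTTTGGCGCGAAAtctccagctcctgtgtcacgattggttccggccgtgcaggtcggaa
POLA1: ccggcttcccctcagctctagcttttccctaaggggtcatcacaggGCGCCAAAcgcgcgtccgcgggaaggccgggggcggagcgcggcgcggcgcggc
PCNA: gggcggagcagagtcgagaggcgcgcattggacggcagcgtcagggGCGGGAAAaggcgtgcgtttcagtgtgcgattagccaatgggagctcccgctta
UHRF1: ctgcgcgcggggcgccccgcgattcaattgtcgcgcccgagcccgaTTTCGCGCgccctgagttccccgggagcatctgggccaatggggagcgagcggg
They lie at chr6:24775287-24775386 on the plus strand (GMNN), chr2:135876476-135876575 on the minus strand (MCM6), chrX:24693735-24693834 on the plus strand (POLA1), chr20:5126628-5126727 on the minus strand (PCNA) and chr19:4909938-4910037 on the plus strand (UHRF1). The motif's first base lay 80 bases before the RefSeq start in GMNN, 137 in POLA1, 59 in PCNA and 160 in UHRF1. In MCM6 the first bases of the overlapping pair lay 90 and 86 bases before it. GMNN and UHRF1 have other transcripts that begin upstream, so their stretches lie inside the deposited gene models.

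The motif was spread unevenly over the roles. All 10 genes with a window in the group of the CMG helicase and its activation held it (CDC45, GINS1, GINS2, GINS3, MCM2, MCM3, MCM6, MCM7, MCM8 and MCM10). So did 5 of 6 fork and S phase genes (CLSPN, E2F1, E2F2, TIPIN and UHRF1, but not TIMELESS). Among licensing genes it was in 4 of 9: GMNN, CDT1, CDC6 and ORC3, and in none of the other 5 ORC genes. Of the polymerase genes 4 of 8 held it (POLA1, POLA2, POLE and POLE2), and PRIM1, PRIM2, POLD1 and POLD2 did not. In the clamp and maturation group 4 of 9 held it (PCNA, RFC1, RFC3 and LIG1). In nucleotide supply TYMS held it and RRM1, RRM2 and TK1 did not. Counting motifs that end before the start, 31 sites were found in 22 genes, at a median of 59 bases before the start, and 21 of them within 100 bases. The 46 genes had 60 windows, and a site was counted for each start it lay before. The same bases can therefore be counted again from another start of a gene.

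**Figure D1:**
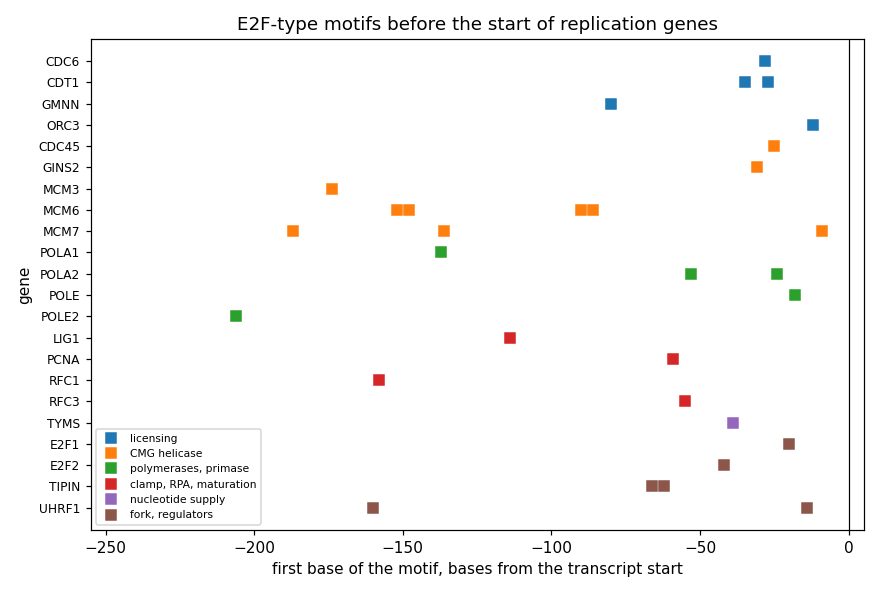
Place of each E2F-type motif before the RefSeq transcript start, in bases (x axis), for the 22 members that hold one wholly before a start (y axis), with 1 square per site coloured by role. Of the 31 sites, 21 lie within 100 bases of the start, and the same bases can be counted again from another start of a gene.

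A CCAAT box, a common promoter element (CCAAT on either strand), was in 65.2% of the members' genes with a window, against 39.7% of all genes with a window and 43.7% of the tested genes among them. The CHR element of genes that peak late in the cell cycle (TTTGAA or TTCGAA on either strand) was in 2 of 46 (4.35%), against 19.5% and 14.9%. The windows' median GC content was 65.7% for members, 65.0% for tested genes and 58.7% for all genes with a window, so the tested genes are the closer background in base composition. No motif searched contains another, though matches can share bases. A match describes these letters in this window and says nothing of binding. Members with the E2F-type motif had a median level of 12.9 FPKM and those without it 22.6 FPKM, and the median log2 fold changes on GIA were -0.025 (23 of 28 negative) and -0.0068 (14 of 18 negative).

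GIA was compared with solvent to ask how the compound altered gene expression in low oxygen. None of the 52 replication genes passed the test, and the measured differences were small. Log2 fold changes (GIA over DMSO) ran from -0.13 for CLSPN, the claspin adaptor of the replication checkpoint, to 0.12 for RPA3, the smallest subunit of the single-strand binding protein RPA. With edgeR's quasi-likelihood test and Benjamini-Hochberg adjustment over 13721 genes, 0 of 52 members and 0% of all genes tested had an adjusted p under 0.05, and the smallest adjusted p of a member was 0.875. DESeq2 and limma also called 0 genes. At an unadjusted p under 0.05 there was 1 member of 52, MCM4, against 4.59% of all genes tested (630 genes), a share near the background.

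The intervals show how large a difference the spread of these libraries left room for, and that spread may be technical. For 51 of the 52 genes (98.1%) the 95% interval of the fold change lay within 1.25-fold in either direction, and the exception was POLA2. The same held for 65.7% of all genes tested and for 92.6% of the 7006 genes with a mean of at least 5 FPKM. For 24 members (46.2%) the interval lay within 1.1-fold, against 18.6% and 34.4%. The median coefficient of variation over the 6 libraries was 3.61% for members, 6.42% for all genes tested and 4.42% for genes of at least 5 FPKM. These intervals are not adjusted for the number of genes.

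**Figure D2:**
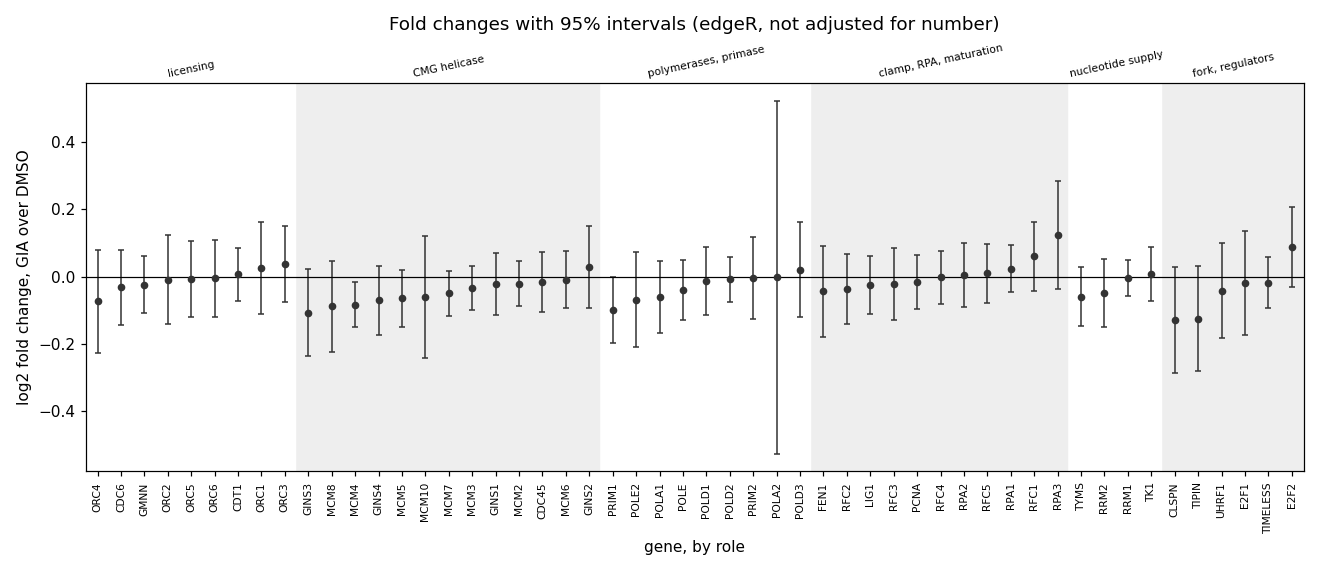
Log2 fold change of GIA over DMSO (y axis) for each of the 52 genes (x axis, grouped by role), with 3 libraries per group. Points are edgeR estimates and bars are 95% intervals; the interval of POLA2, from -0.53 to 0.52, is much wider than the others, and only that of MCM4 stays below 0.

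The signs leaned one way. The log2 fold change was negative for 40 of 52 members (76.9%), against 49.8% of all genes tested and 56.3% of genes of at least 5 FPKM. The members' median was -0.020, beside 0.00040 over all genes tested and -0.0097 over genes of at least 5 FPKM. When scaling factors and the test were computed on genes of at least 5 FPKM alone, 30 of the 51 members left were negative (58.8%, against 50.4% of those genes) with a median of -0.0096. On that scaling the medians of licensing (0.0036) and of the clamp, RPA and maturation group (0.0074) were positive, and those of the other roles stayed negative. Every GIA library was below every DMSO library in FPKM for 8 members (15.4%), against 5.60% of all genes tested: MCM3, MCM4, MCM5, MCM7, GINS3, GINS4, PRIM1 and TIPIN. Every GIA library was above every DMSO library for 1 member, E2F2, against 5.63%. Of the 7006 genes of at least 5 FPKM, 497 were below in this way and 319 above, so those genes lean the same way. The 8 members below include 6 of the 13 genes of the helicase group.

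GIA library 2 moved with this lean. The mean deviation of the 52 genes from their own 6-library mean, on the log2 scale, was -0.051 in GIA library 2, 0.0097 in GIA library 1 and 0.0045 in GIA library 3. In DMSO libraries 1, 2 and 3 it was 0.013, 0.0059 and 0.018. So GIA libraries 1 and 3 lay within or near the range of the solvent libraries, and GIA library 2 alone was below 0. It held the lowest value of the 6 for 22 of the 52 members (42.3%), against 23.9% of all genes tested. The summed FPKM of the epithelial markers was also lowest there (381, against 430 to 451). That sum is mostly KRT18 and KRT8, which were lowest there at 219 and 134 FPKM. KRT19 (27.7), EPCAM (0.294) and CDH1 (0.0293) were not lowest there. The sum of the fibroblast markers was highest there (216, against 170 to 193) and is mostly LUM, at 197 FPKM. DCN, COL1A1 and COL3A1 were also highest there. The part of these markers in the result was not tested. Without GIA library 2 the negative count was 30 of 52 (57.7%) and the median -0.0036.

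Within GIA library 2 the roles were not alike. The fork and S phase genes averaged -0.088 there, the polymerases and primase -0.075, the CMG helicase group -0.069, nucleotide supply -0.061, licensing -0.031 and the clamp, RPA and maturation group -0.0028. The polymerase value rests in part on POLA2, described below, and was -0.052 over the other 8 genes of that role. Without GIA library 2, GIA was below DMSO for 11 members (21.2%, against 10.9% of all genes tested) and above it for 2, RPA2 and E2F2 (against 9.93%). Genes that do not overlap with all libraries cannot come to overlap when one is removed, so these counts can only grow.

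**Figure D3:**
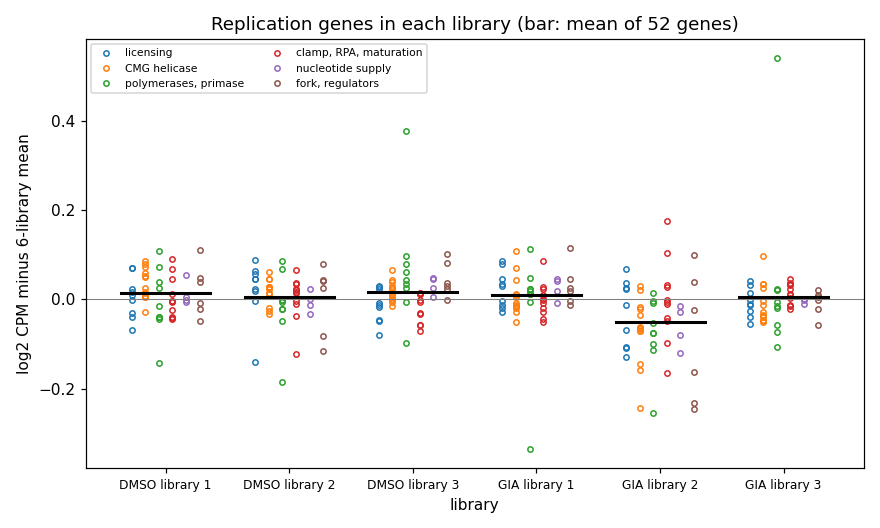
Deviation of each of the 52 genes from its own mean over the 6 libraries, in log2 CPM (y axis), for each library (x axis), with 1 point per gene coloured by role and a black bar at the mean. The bar lies at -0.051 in GIA library 2 and between 0.0045 and 0.018 in the other 5; the far green points of DMSO library 3 and GIA library 3 are POLA2.

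Levels spanned 116-fold. FPKM is scaled by a length for each gene, and the lengths behind the deposited values were not examined here. Levels of different genes are therefore compared in FPKM only, and an order or ratio between genes rests in part on those lengths. RRM1 was highest at a mean of 328 FPKM over the 6 libraries, followed by PCNA (182), MCM7 (124) and MCM3 (104), which were the 4 genes over 100. MCM2 (78.8), TK1 (76.4) and POLD2 (74.3) came next, and the ranges of neighbours among those 3 overlap. At the other end 13 genes were under 10 FPKM, and ORC4 was lowest at 2.83. Of the 51 pairs of neighbours in the order of means, 15 had ranges over the 6 libraries that did not overlap and 36 had ranges that did, so many places in the middle of the order, such as those from MCM10 (11.9) to POLE2 (9.94), are not fixed. The lowest gene, ORC4, stayed clear of the next, ORC2 (6.18).

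**Figure D4:**
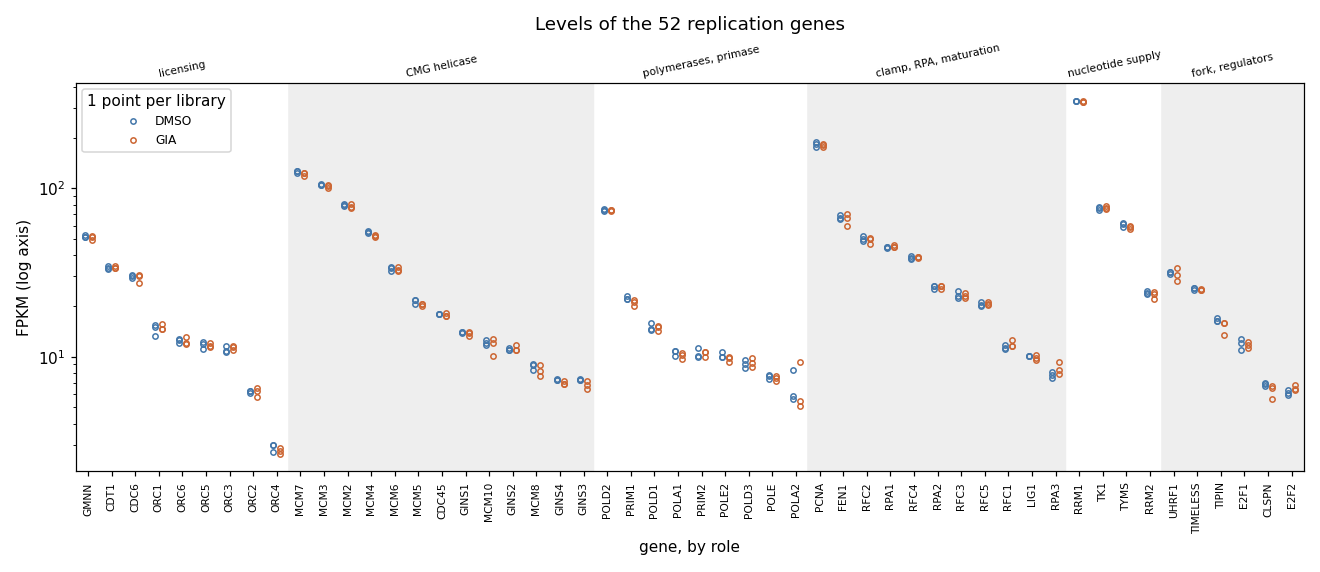
FPKM in each library (y axis, log scale) for the 52 genes (x axis, ordered by level within each role), with 1 point per library and DMSO and GIA side by side. RRM1 (mean 328) and PCNA (182) stand highest and ORC4 (2.83) lowest, and the points of both groups lie close together for nearly every gene.

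Among the 9 licensing genes, 6 log2 fold changes were negative and the median was -0.0058. Geminin, the inhibitor of CDT1, was the most abundant at 51.5, 53.0 and 51.3 FPKM in DMSO libraries 1 to 3 and 52.4, 51.5 and 49.5 in GIA libraries 1 to 3 (log2 fold change -0.024, SE 0.038). The groups overlap. CDT1, which brings the MCM ring to the origin, was at 33.1, 33.7 and 34.4 FPKM with DMSO and 33.6, 34.7 and 33.5 with GIA. Geminin exceeded CDT1 in every library, by 1.48 to 1.58 times. CDC6, the loading ATPase, was at 29.5 to 30.6 FPKM with DMSO and at 30.6, 27.4 and 30.3 with GIA, with its lowest value in GIA library 2.

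The ORC subunits were unequal in FPKM although they form 1 complex. ORC1, the subunit that in human cells comes and goes with the cycle, was highest on average at 13.3 to 15.6 FPKM and ORC4 lowest at 2.65 to 3.00, a ratio of 4.44 to 5.88 over the libraries. ORC6, ORC5 and ORC3 lay between 10.6 and 13.1 FPKM, and ORC2 between 5.77 and 6.51. ORC4 was at 2.97, 3.00 and 2.73 FPKM with DMSO and 2.88, 2.65 and 2.74 with GIA (log2 fold change -0.074, SE 0.068). ORC3 was at 10.6, 11.5 and 10.8 with DMSO and 10.9, 11.5 and 11.4 with GIA (0.038, SE 0.050). Neither pair of groups is apart, and the ORC genes summed to 58.8 ± 0.395 FPKM in solvent and 59.1 ± 0.375 under GIA (SD, n = 3).

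The helicase group held most of the genes whose groups did not overlap. All 6 ring subunits, MCM2 to MCM7, had a negative log2 fold change, between -0.083 and -0.0087 with a median of -0.041, though MCM6 was at 0.00020 when the fit held only genes of at least 5 FPKM. In 4 of the 6 every GIA library was below every DMSO library, against 5.60% of all genes tested. MCM4 was at 55.6, 54.3 and 54.9 FPKM with DMSO and 52.6, 51.2 and 51.9 with GIA. The highest GIA value is under the lowest DMSO value, and the log2 fold change was -0.083 with an SE of 0.030 (95% interval from -0.15 to -0.016, adjusted p = 0.875 by edgeR's quasi-likelihood test). MCM4 therefore did not pass the test, and its interval spans folds from 0.901 to 0.989. Leaving out each library in turn kept its log2 fold change between -0.095 and -0.069.

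MCM7 was at 124, 127 and 126 FPKM with DMSO and 123, 119 and 123 with GIA (log2 fold change -0.049, SE 0.030). MCM3 was at 106, 105 and 105 with DMSO and 104, 103 and 100 with GIA (-0.033, SE 0.029). In both genes the gap between the groups is about as large as the spread within one. MCM5 was at 21.7, 21.8 and 20.7 FPKM with DMSO and 20.6, 20.1 and 20.7 with GIA (-0.065, SE 0.037), and its groups differ only beyond the digits printed. MCM2, at 79.1, 80.2 and 78.8 with DMSO and 77.9, 80.7 and 76.5 with GIA, overlapped, with its highest value in GIA library 2. MCM6 overlapped throughout, at 33.5, 32.3 and 33.9 with DMSO and 34.0, 32.9 and 32.3 with GIA (-0.0087, SE 0.038).

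The ring is assembled from equal numbers of its subunits, but their FPKM values were far from equal. MCM7 made up 29.9% of the summed FPKM of the 6 genes, MCM3 25.1%, MCM2 19.1%, MCM4 12.9%, MCM6 8.01% and MCM5 5.05%, each a mean over 6 libraries. This order held in 6 of 6 libraries, and MCM7 exceeded MCM5 by 5.73 to 6.07 times. In estimated counts, not scaled by length, MCM4 (23536 to 27237) was about level with MCM3 (23459 to 28263). MCM5 (9583 to 11140) ran above MCM6 (8308 to 10445), so the order depends on the lengths used. The 6 genes summed to 420 ± 0.845 FPKM in solvent and 408 ± 3.62 under GIA (SD, n = 3), with no test made on the sum. The gene model of MCM7 also holds those of MIR25, MIR93 and MIR106B on the same strand, and how reads there were shared is not stated.

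Of the factors that turn the ring into the active helicase, GINS3 had the most negative estimate. It was at 7.41, 7.25 and 7.27 FPKM with DMSO and 6.77, 6.42 and 7.20 with GIA (log2 fold change -0.11, SE 0.057, adjusted p = 0.875 by edgeR), so GIA library 3 almost reached the solvent libraries. Without GIA library 2 the estimate of GINS3 was -0.063. GINS4 was at 7.28 to 7.42 with DMSO and 6.89 to 7.18 with GIA, and GINS1 (13.8 to 14.1 and 13.3 to 14.1) and GINS2 (10.9 to 11.2 and 10.9 to 11.8) overlapped. GINS2 was the only one of the 13 genes of the group with a positive estimate in the fit reported here. CDC45, which joins MCM and GINS, was nearly constant at 17.9 FPKM in each DMSO library and at 17.4, 18.3 and 17.4 with GIA. MCM10, needed to fire the assembled helicase, and MCM8, an MCM relative known from recombination, each had their lowest value in GIA library 2, at 10.1 FPKM (11.8 to 12.7 elsewhere) and 7.65 FPKM (8.19 to 9.00 elsewhere).

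Among the 9 polymerase and primase genes 8 estimates were negative, with a median of -0.013. PRIM1, the catalytic primase subunit that lays the RNA primers, was at 22.0, 22.8 and 22.1 FPKM with DMSO and 21.7, 21.0 and 20.0 with GIA. Its groups do not overlap, and the estimate, GIA over DMSO, was -0.097 on the log2 scale with an SE of 0.043 (95% interval from -0.20 to 0.00060, adjusted p = 0.875 by edgeR's quasi-likelihood test). The gene model of NACA, an abundant gene on the same strand, shares 333 bases with that of PRIM1. PRIM2, its partner, overlapped at 10.0 to 11.2 FPKM with DMSO and 9.97 to 10.7 with GIA. POLA1, the catalytic subunit of polymerase alpha, was at 10.1, 10.8 and 10.8 with DMSO and 10.5, 9.73 and 10.2 with GIA (-0.060, SE 0.048, and -0.027 without GIA library 2), also with overlap.

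The replicative polymerases differed more in how their subunits were balanced in FPKM than between the groups. POLD2, an accessory subunit of polymerase delta, was at 73.6, 74.1 and 75.8 FPKM with DMSO and 74.7, 74.7 and 73.2 with GIA (log2 fold change -0.0079, SE 0.030). It exceeded POLD3 by 7.59 to 8.87 times and made up 75.6% of the summed FPKM of POLD1, POLD2 and POLD3. The catalytic subunit POLD1 stood at 14.3 to 15.8 FPKM. In polymerase epsilon, the leading-strand enzyme, POLE2 exceeded the catalytic POLE by only 1.27 to 1.38 times, with POLE at 7.21 to 7.77 FPKM and POLE2 at 9.24 to 10.7.

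POLA2, the accessory subunit of polymerase alpha, was the 1 member whose level could not be fixed well. It was at 5.83, 5.64 and 8.37 FPKM with DMSO and 5.08, 5.43 and 9.34 with GIA, high in library 3 of both groups, with a coefficient of variation of 26.9% and an estimate of -0.0017 on the log2 scale with an SE of 0.23 (95% interval from -0.53 to 0.52). Its model (chr11:65261920-65305589, plus strand) shares 43662 bases with another model on the same strand, AP000944 (ENSG00000285816, chr11:65261928-65326543). That model was at 11.2, 11.6 and 8.36 FPKM with DMSO and 12.6, 11.3 and 6.73 with GIA, low wherever POLA2 was high. The sum of both was even: 87.7, 88.7 and 90.1 CPM (counts in relation to library size) with DMSO and 89.8, 85.5 and 88.5 with GIA, a coefficient of variation of 1.88% against 27.0% and 21.8% for the separate models. With the models merged, an alternative chosen after seeing the data, the estimate was -0.017 with an SE of 0.038 (95% interval from -0.10 to 0.069, adjusted p = 0.949 by edgeR). Models of 30 of the 52 genes overlap another model, and in 7 the other is on the same strand and was itself tested (MCM7, POLA2, PRIM1, POLD3, RFC3, FEN1 and TIPIN), so their shares of reads are estimates too.

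**Figure D5:**
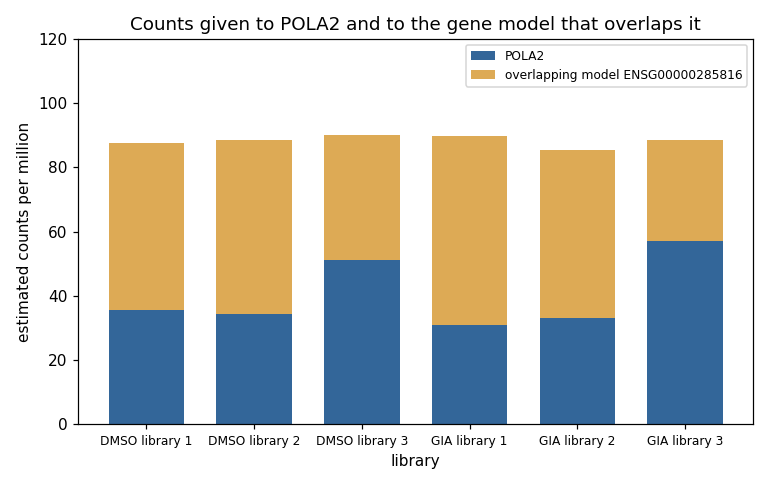
Estimated CPM (y axis, from 0) given to POLA2 and, stacked on it, to the overlapping model ENSG00000285816 in each library (x axis). The split moves between libraries while the height of the bars stays between 85.5 and 90.1.

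The clamp, its loader, RPA and the enzymes that finish Okazaki fragments were closest to even, with 6 of 11 estimates negative and a median of -0.0018. PCNA, the sliding clamp, was at 188, 177 and 184 FPKM with DMSO and 184, 177 and 182 with GIA (log2 fold change -0.016, SE 0.035), and the groups overlap. The loader's large subunit RFC1 was at 11.3, 11.8 and 11.1 with DMSO and 11.6, 12.6 and 11.6 with GIA (0.061, SE 0.045), the third highest estimate of all 52, and 0.022 without GIA library 2. It had the lowest FPKM of the RFC subunits, and RFC2 exceeded it by 3.69 to 4.57 times. RFC2 (46.6 to 51.9), RFC4 (38.0 to 39.7), RFC3 (22.3 to 24.6) and RFC5 (19.9 to 21.0) kept that order in 6 of 6 libraries.

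RPA coats the single strands behind the helicase. RPA3 had the highest estimate of the 52, at 8.09, 7.45 and 7.81 FPKM with DMSO and 7.94, 9.24 and 8.32 with GIA (log2 fold change 0.12, SE 0.071, adjusted p = 0.875 by edgeR's quasi-likelihood test). The groups overlap, its highest value was in GIA library 2, and without that library the estimate was 0.064. The gene model of UMAD1 covers 77897 bases of RPA3 on the opposite strand, and the use of strand in counting is not stated, so reads of the pair may not be told apart. RPA1 (44.2 to 46.3 FPKM) and RPA2 (25.2 to 26.4) overlapped between the groups, and RPA1 exceeded RPA3 by 4.87 to 5.99 times. FEN1, the nuclease that removes primer flaps, was at 66.2, 69.4 and 67.1 with DMSO and 70.3, 59.7 and 66.8 with GIA, and holds both its highest and its lowest value among the GIA libraries. LIG1, which seals the nicks, was at 10.1 FPKM in each DMSO library and at 9.62, 10.3 and 9.82 with GIA.

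Nucleotide supply held the member with the highest level and the smallest spread. RRM1, the large subunit of ribonucleotide reductase, which makes deoxynucleotides, was at 328, 328 and 330 FPKM with DMSO and 331, 327 and 325 with GIA. Its coefficient of variation was 0.685% and its estimate -0.0040 on the log2 scale (SE 0.023, with a 95% interval from -0.057 to 0.049). The small subunit RRM2 was at 23.7, 23.9 and 24.4 with DMSO and 24.3, 21.9 and 23.6 with GIA (-0.048, SE 0.045). Without GIA library 2, which holds its lowest value, the estimate of RRM2 was -0.0025. In FPKM, RRM1 exceeded RRM2 by 13.5 to 14.9 times, the widest ratio of the complexes examined. Their estimated counts, which are not scaled by length, ran from 84425 to 104152 and from 13214 to 16527. Part of the ratio therefore rests on the lengths used. TYMS, which makes thymidylate, was at 62.1, 59.1 and 61.8 with DMSO and 59.2, 57.0 and 59.7 with GIA (-0.059, SE 0.038, and -0.034 without GIA library 2), and ENOSF1 overlaps it on the opposite strand. TK1, the salvage enzyme for thymidine, was at 74.5 to 77.9 with DMSO and 75.5 to 78.4 with GIA. In all 4 genes the groups overlap.

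Genes that guard the fork or set the start of S phase held the lowest pair of estimates and the second highest of the 52, and the lowest values of CLSPN and TIPIN were in GIA library 2. CLSPN was at 6.73, 6.91 and 6.94 FPKM with DMSO and 6.74, 5.57 and 6.53 with GIA (log2 fold change -0.13, SE 0.070). TIPIN, partner of TIMELESS in the fork protection complex, was at 16.2, 16.2 and 16.9 with DMSO and 15.9, 13.5 and 15.9 with GIA (-0.12, SE 0.070). Both have an adjusted p of 0.875 by edgeR's quasi-likelihood test, and without GIA library 2 the estimates were -0.045 and -0.046. UHRF1, which carries DNA methylation across the fork, was at 30.9, 31.9 and 31.9 with DMSO and 33.6, 28.0 and 30.5 with GIA, so the GIA libraries lie on both sides of the solvent range and the estimate was -0.042 with all libraries and 0.025 without GIA library 2. TIMELESS was even at 24.8 to 25.6 FPKM over all 6 libraries.

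Of the E2F factors themselves, neither passed the test. E2F2 was at 6.11, 5.96 and 6.32 FPKM with DMSO and 6.41, 6.83 and 6.33 with GIA (log2 fold change 0.087, SE 0.053, adjusted p = 0.875 by edgeR). It was the only member with every GIA library above every DMSO library, by a margin of 6.33 over 6.32 FPKM. E2F1 overlapped, at 12.8, 10.9 and 12.1 with DMSO and 11.8, 12.2 and 11.3 with GIA.

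A further 36 replication genes outside the 52 were read from the same fit, and 0 of 36 were called. Of these, 22 (61.1%) had a negative log2 fold change, with a median of -0.0082, and 2 had every GIA library below every DMSO library, a share near the 5.60% of all genes tested. Those were DSCC1, part of the cohesion clamp loader (14.6, 14.7 and 14.5 FPKM with DMSO and 13.9, 12.9 and 13.1 with GIA, log2 fold change -0.13, SE 0.052), and POLE3, a small subunit of polymerase epsilon (41.6, 43.8 and 41.5 with DMSO and 41.1, 37.5 and 38.8 with GIA, -0.11, SE 0.047). Both had an adjusted p of 0.875 by edgeR. RECQL4, a helicase of origin firing, had an estimate of 0.11 (SE 0.051), and E2F8, a repressor of the E2F family, one of 0.19 (SE 0.11).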

How the data were processed

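RNA-seq was measured in 6 libraries, 3 per group. The authors deposited 1 table with an estimated count and an FPKM for each gene and library, per the file headers. The builds GRCh38 and hg38 and the tools HISAT2 2.2.1, StringTie 2.1.6, cutadapt, FastQC 0.10.1 and DESeq2 1.22.2 are listed, without roles, in the submitters' processing notes. For the annotation release and the use of strand in counting, nothing is stated in the sources used here. The deposited estimated counts were already whole, and their low values were uneven (6528 values at 1, 5410 at 2, 4183 at 3, 6798 at 4 and 2499 at 5). What 1 fragment is worth in counts is therefore not known, and a division by 4 was an alternative. Where gene models overlap, the split of reads is an estimate.

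The two-sided quasi-likelihood test of edgeR 4.0.16 (R 4.3.3, TMM factors 0.997 to 1.01, no covariate) was run on genes with a mean of at least 0.5 FPKM, with Benjamini-Hochberg adjustment over all 13721 and a threshold of 0.05. The biological coefficient of variation was 11%. The script was tested on simulated data. DESeq2 1.42.0 and limma 3.58.1 on log2(FPKM + 0.5) were alternatives, with other filters, scalings and pseudocounts and each library left out. The members and lists were chosen with earlier results of these data known. Genes were named by role (MCM2 to MCM7; highest and lowest level and 2 smallest p per role; 3 highest and 3 lowest fold changes; 4 other genes of smallest p), and other members complete their complexes.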

Additional observations from a re-analysis of the deposited data

How the results depend on the processing

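Under each of the alternatives run, 0 members were called, and the median and negative count of the members kept their direction, with medians of -0.031 to -0.0036 and 30 to 40 negative genes over the left-out libraries. The count of called genes, 0 in the reported test, was 3 with the replicate block and 0 to 5 when a library was left out. Whether the replicate numbers pair the libraries is not stated. Same-numbered libraries had correlations of deviations of 0.052, 0.033 and 0.097, and differently numbered ones of -0.086 to 0.035, which does not settle it. With the replicate block the members' median was -0.021 with 40 negative. At an unadjusted p under 0.05 there were 0 to 6 members over the left-out libraries, 6 of them without GIA library 1 and 0 without DMSO library 1 or 3.

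The sign of the estimate changed for 9 of 51 members with genes of at least 5 FPKM alone, for 6 to 14 of 52 when a library was left out (14 without GIA library 2), and for 0 to 2 under each other alternative. Of the genes chosen by the naming rule, those that changed sign are as follows. With genes of at least 5 FPKM alone, the log2 fold changes were 0.00020 for MCM6, 0.0066 for POLA2, 0.0012 for POLD2 and 0.0050 for RRM1, and with library totals in place of TMM it was 0.00010 for POLA2. Leaving out 1 library gave -0.032 to 0.0052 for MCM6, -0.038 to 0.0030 for PCNA, -0.34 to 0.20 for POLA2, -0.017 to 0.0035 for POLD2, -0.015 to 0.0017 for RRM1 and -0.11 to 0.025 for UHRF1. The cause was not tested. Precision is limited by the 3 libraries per group, and no smallest detectable difference was computed.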
